A study of Mus musculus with 30 samples.

Results

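The odorant receptor (OR) genes Olfr704, Olfr705, Olfr706, Olfr710, Olfr6, Olfr711, Olfr2 and Olfr714 of the P cluster on mouse chromosome 7 were measured in 5 groups of mice. They were selected on their measured RNA counts, which were lower by about 2-fold or more in mice that lack both the H element and the P element, so their difference in those mice is given as a description and carries no test. They are 8 of 564 OR genes with a probe in the table, and 8 of the 22 P cluster genes with values on the cartridges that held these mice and their controls.

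RNA of whole olfactory mucosa from single mice, all 21 days old, was counted with the NanoString platform and the Gorilla CodeSet, 1 µg of total RNA and 1 mouse per lane, with 6 mice in each group. The double homozygous mutants of the ΔP (Berry) x ΔH strain (ΔHxΔP mice) ran on cartridge MK29 beside 6 wild-type mice of the companion strain, and 6 wild-type mice of the companion strain of ΔH ran on cartridge MK37. All 18 were of a mixed C57BL/6J x 129SvEv background, and the sources used here do not give which strain's P cluster alleles each mouse carried. Homozygous ΔOlfr7Δ mice, inbred on 129SvEv and without the Olfr7 cluster of chromosome 9, ran on cartridge MK38 beside 6 wild-type 129SvEvTac mice of the 129S6/SvEvTac background. Females numbered 3 of 6 in the MK29 wild types, 4 of 6 in the MK37 wild types, 4 of 6 in the 129 wild types, 2 of 6 in the ΔOlfr7Δ mice and 1 of 6 in the ΔHxΔP mice. No mice with the P deletion alone or the H deletion alone were analysed here, so the effects of the deletions cannot be told apart from these values.

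Odorant receptors are G protein-coupled receptors that bind volatile chemicals on the cilia of olfactory sensory neurons. Each mature neuron transcribes a single allele of a single OR gene, and neurons with the same receptor send their axons to the same glomeruli of the olfactory bulb. Enhancers such as the H element on chromosome 14 and the P element on chromosome 7 lie within or beside OR clusters and act on the OR genes of their own cluster. Olfr2 encodes I7, a receptor known for its response to aliphatic aldehydes such as octanal, Olfr6 encodes M50, and Olfr714 encodes P4. In RNA of whole tissue, fewer neurons that chose a receptor and less RNA per neuron cannot be told apart.

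The values are counts of a capture and a reporter probe bound side by side on the same RNA, so what a count measures is set by those sequences. They are shown for the member with the largest measured change and for the members closest to another gene of the panel. Among the 16 probes of the members, 40 to 50 bases long, 9 matched their closest other OR probe at no more than 29 bases in an ungapped alignment over at least 30 bases, and 7 matched at 30 or more. The probes of Olfr2 reached 29 identical bases and are printed without capitals.
Olfr2 capture: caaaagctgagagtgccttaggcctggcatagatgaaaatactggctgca
Olfr2 reporter: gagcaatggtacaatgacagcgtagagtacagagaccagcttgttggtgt

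The capture probe of Olfr714 was the closest of the 16 to that of another gene, its neighbour Olfr713, which encodes P3. The capture probes of these genes were identical at 38 of 42 aligned bases and the reporter probes at 30 of 35. Capitals mark the longest run that both genes share, 22 bases in the capture probe and 14 in the reporter.
Olfr714 capture: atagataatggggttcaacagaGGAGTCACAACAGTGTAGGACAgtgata
Olfr713 capture: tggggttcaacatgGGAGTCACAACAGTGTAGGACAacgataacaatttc
Olfr714 reporter: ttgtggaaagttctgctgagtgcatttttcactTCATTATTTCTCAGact
Olfr713 reporter: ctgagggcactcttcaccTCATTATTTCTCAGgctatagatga

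For Olfr704, 37 of 42 bases of the capture probe and 36 of 42 bases of the reporter probe were identical to those of Olfr694, a P cluster gene of the same MOR283 subfamily. The longest shared runs, again in capitals, were 10 and 12 bases. How much RNA of Olfr713 the Olfr714 probes bound, or RNA of Olfr694 the Olfr704 probes, was not tested.
Olfr704 capture: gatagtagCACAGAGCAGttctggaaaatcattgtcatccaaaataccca
Olfr694 capture: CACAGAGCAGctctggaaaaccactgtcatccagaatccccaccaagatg
Olfr704 reporter: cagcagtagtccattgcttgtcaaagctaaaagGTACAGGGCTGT
Olfr694 reporter: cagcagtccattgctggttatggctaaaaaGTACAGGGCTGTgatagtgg

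A lane held between 618163 and 1013430 raw counts of OR genes in all. Counts were scaled by the positive controls of the lane and by 5 reference genes that mature sensory neurons transcribe (Omp, Gnal, Cnga2, Ano2 and Adcy3), and are called scaled counts below. The lane background, taken as 2 SD above the mean of the lane's 8 negative controls, lay between 32.4 and 56.2 scaled counts and was not subtracted. Raw counts of Omp, the olfactory marker protein, ranged from 80769 to 135506, so the tissue held mature sensory neurons in all lanes. Markers of immature neurons and of other cell types were not analysed here.

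The 3 genes of the MOR103 subfamily, Olfr2, Olfr711 and Olfr6, follow each other in the gene order. Among the 8 genes they had the lowest measured shares of the wild-type count in ΔHxΔP mice. Olfr2 had a median of 3842 scaled counts in the 12 mixed wild-type mice, from 3491 to 4244. In the 6 ΔHxΔP mice it had a median of 46.1, from 40.4 to 65.9. Only 4 of these 6 lanes stood above their own background, so what was left of Olfr2 RNA was at the limit of the assay. Olfr711 had a median of 2351 scaled counts, from 2137 to 2622, in wild-type mice. In ΔHxΔP mice its median was 65.1, from 38.3 to 79.2, with 5 of 6 lanes above background. Olfr6, the gene with residual counts that were clearly measurable, went from a wild-type median of 7202, range 6799 to 8360, to a median of 256, range 171 to 345, with all 6 mutant lanes above background.

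Expressed as group means, 1.29% of the wild-type scaled count was left for Olfr2, 2.57% for Olfr711 and 3.50% for Olfr6. The log2 changes of the limma fit were -6.27 ± 0.09 (SE), -5.31 ± 0.12 and -4.89 ± 0.12 in the same order, on the scale log2(scaled count + 1). These sizes depend on the background that remains in the mutant values. The methods of the study subtract the background of each lane and set values then under 1 to that background. Treated so, the log2 change was -7.61 for Olfr2, -6.87 for Olfr711 and -5.16 for Olfr6. Mutant lanes under their background, which occurred for Olfr2 and Olfr711, thus kept the full background as their value. With plain subtraction in all lanes, the ratio of the group means was 475 for Olfr2, 123 for Olfr711 and 33.9 for Olfr6. For Olfr2 and Olfr711 the mutant means, 49.6 and 60.3 scaled counts, were close to the mean lane background of 41.6. Their ratios rest on small remainders and depend on the background chosen, so they are not measured sizes. The least extreme pair of mice, the lowest wild type against the highest mutant, still differed 53.0-fold for Olfr2, 27.0-fold for Olfr711 and 19.7-fold for Olfr6.

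Olfr714 and Olfr704 lie at the 2 ends of the stretch that holds the 8 genes and were lower by a smaller measured factor. The mutant counts of Olfr714 lay near the lane background, which limits the factor that could be measured for it. Olfr714 had a median of 459 scaled counts in wild-type mice, from 411 to 536, and of 56.8 in ΔHxΔP mice, from 48.3 to 73.0. All 6 mutant lanes were above background but by no more than 2.13-fold, and 12.8% of the wild-type mean was left. Its log2 change was -2.95 ± 0.09 (SE), or -4.67 with the background subtracted. The ratio of its group means was 7.81, or 24.2 with plain subtraction of the background. Olfr704 had a median of 1427 scaled counts in wild-type mice, from 1047 to 1898, and of 280 in ΔHxΔP mice, from 243 to 323. Its mutant counts were between 6.27 and 8.31 times the lane background, with 19.4% of the wild-type mean left and a log2 change of -2.34 ± 0.12 (SE). Olfr694, whose probes resemble those of Olfr704, had a mean of 991 scaled counts in ΔHxΔP mice. How much of the remaining Olfr704 count came from Olfr694 RNA was not tested.

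Olfr710, Olfr705 and Olfr706 were lower by about 2-fold. Olfr710 had a median of 276 scaled counts in wild-type mice, from 209 to 379, and of 129 in ΔHxΔP mice, from 90.3 to 160. Olfr705 had a median of 2920 scaled counts in wild-type mice, from 2516 to 3521, and of 1370 in ΔHxΔP mice, from 1201 to 1543. Olfr706 had a median of 1532 scaled counts in wild-type mice, from 1341 to 1783, and of 775 in ΔHxΔP mice, from 691 to 850. The shares of the wild-type mean that were left were 44.0%, 46.4% and 49.7%, with log2 changes of -1.19 ± 0.14 (SE), -1.10 ± 0.08 and -1.01 ± 0.07 in that order. The mutant counts of Olfr710 were only 2.42 to 4.55 times the lane background. With the background subtracted, the ratio of the group means was 2.87 for Olfr710, 2.19 for Olfr705 and 2.07 for Olfr706.

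In no member did the 6 ΔHxΔP mice overlap the 12 wild-type mice, which held for 9.16% of the 557 OR genes tested. A log2 change of -1 or less was found in 3.59% of the 557 genes. Both facts restate how the 8 genes were chosen. The control group mattered for the members near a 2-fold fall. Against the MK29 wild types alone, which shared the cartridge and the companion strain with the mutants, the log2 change was -0.95 ± 0.07 (SE) for Olfr705 and -0.95 ± 0.08 for Olfr706, both just short of 2-fold, while Olfr710 was at -1.40 ± 0.14 and Olfr704 at -2.60 ± 0.09. Against the MK37 wild types alone, Olfr710 was at -0.97 ± 0.14 and Olfr704 at -2.08 ± 0.10. The change of Olfr711 was -5.34 against the MK29 and -5.28 against the MK37 wild types, and those of Olfr2 and Olfr6 moved by less.

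**Figure D1:**
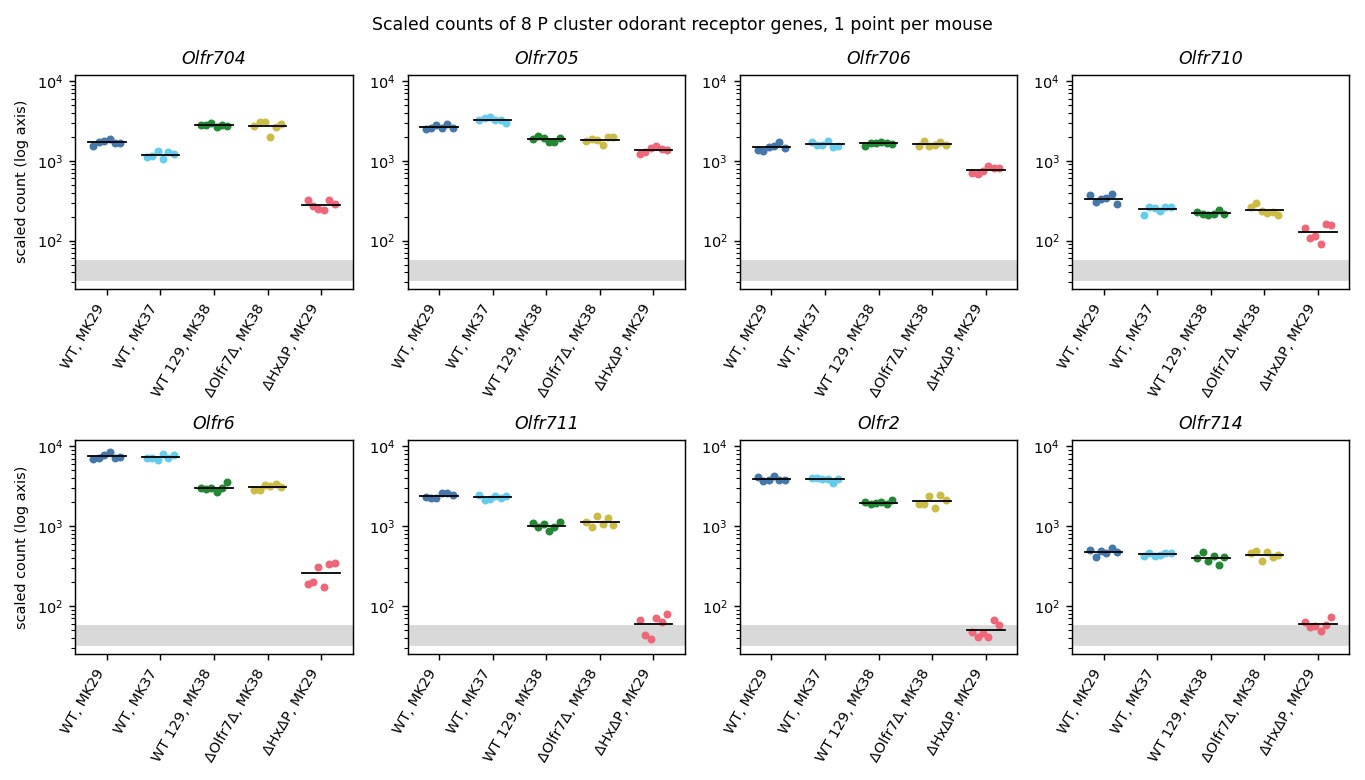
Scaled counts (log axis) of the 8 genes in each of 30 mice, by group; black lines are group means and the grey band spans the lane backgrounds from 32.4 to 56.2 scaled counts. Olfr2, Olfr711 and Olfr714 reach the band in ΔHxΔP mice, and Olfr6, Olfr711 and Olfr2 are lower in both 129 groups than in both mixed wild-type groups.

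**Figure D2:**
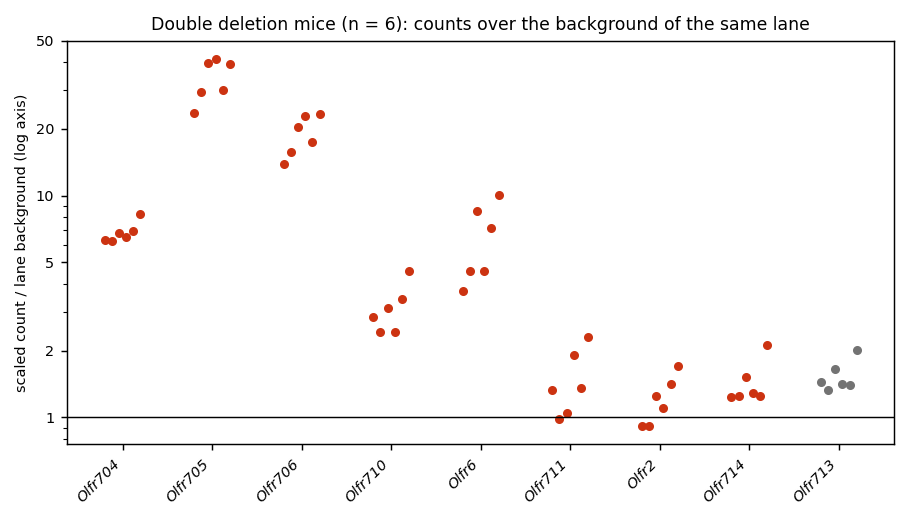
Scaled count over the background of the same lane (log axis) in the 6 ΔHxΔP mice, for the 8 genes and for Olfr713; the line at 1 marks the lane background. Points below the line are 2 mice for Olfr2 and 1 mouse for Olfr711, and the Olfr705 and Olfr706 points lie far above it.

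Along the gene order of the study's OR table the 8 genes fall in 1 stretch, from place 11 (Olfr704) to place 22 (Olfr714) of 25 P cluster genes. The stretch also holds Olfr707, which had no values on these cartridges, Olfr709-ps1, which had no probe, Olfr708 and Olfr713. Olfr713 was not on the list of 8 although it was lower by more than 2-fold. It had a median of 365 scaled counts in wild-type mice, from 315 to 427, and of 62.5 in ΔHxΔP mice, from 52.9 to 73.5, a log2 change of -2.52 ± 0.09 (SE). The mutant counts were between 1.33 and 2.02 times the lane background, and the ratio of the group means was 5.81, or 15.0 with the background subtracted. The Olfr713 probes are those closest to the probes of Olfr714 shown above. Since Olfr711, Olfr2, Olfr713 and Olfr714 lay near the lane background in ΔHxΔP mice, the order of their changes was not measured. The same holds for the order of Olfr713 and Olfr714 against Olfr6.

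Members just inside a 2-fold fall were Olfr706 at -1.01 and Olfr705 at -1.10. The 3 genes of the P cluster just outside it were Olfr716 at -0.82 ± 0.12 (SE), Olfr708 at -0.69 ± 0.08 and Olfr695 at -0.61 ± 0.06. Olfr716 was past 2-fold, at -1.06, against the MK37 wild types alone and at -0.58 against the MK29 wild types alone. Among the 14 other P cluster genes, 9 were lower and 1 was higher at an adjusted p under 0.05 in limma, against 23.9% of the 557 genes that were lower and 10.2% that were higher. Scaled by medians of ratios over the OR genes, 103 genes were lower and 123 higher, in place of 133 and 57. In gene order, those outside the stretch had log2 changes of -0.16 for Olfr693, -0.17 for Olfr694, -0.61 for Olfr695, -0.14 for Olfr697, -0.17 for Olfr698, -0.50 for Olfr699, -0.57 for Olfr701, -0.46 for Olfr702 and -0.60 for Olfr703 on one side. On the other side Olfr17, which encodes P2, was at -0.28, Olfr715 at 0.39 and Olfr716 at -0.82. The size of the change did not follow the receptor subfamily alone, since the MOR263 genes were at -2.52 (Olfr713), -2.95 (Olfr714) and -0.28 (Olfr17), and Olfr704, Olfr705 and Olfr706 belong to MOR283 as do Olfr693 to Olfr701 and Olfr703.

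**Figure D3:**
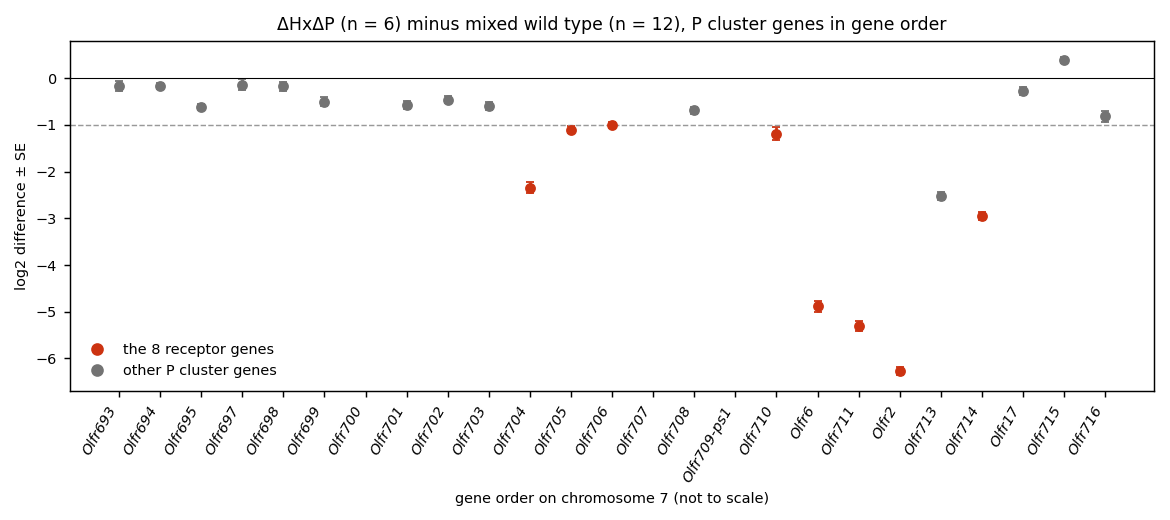
Log2 change in ΔHxΔP mice (n = 6) against mixed wild-type mice (n = 12), ± SE, for 22 P cluster genes in gene order, not to scale; the 8 genes are in red and the dashed line marks a 2-fold fall. The deepest value is that of Olfr2 at -6.27, and Olfr713 at -2.52 is the grey point far below the dashed line.

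The 129 mice asked how far the levels of these receptors differ between wild-type mice. Olfr6, Olfr711 and Olfr2 were lower in the 6 wild-type 129SvEvTac mice than in each of the 12 mixed wild-type mice. The median of Olfr6 was 2969 scaled counts, from 2650 to 3511, that of Olfr711 was 1026, from 872 to 1120, and that of Olfr2 was 1954, from 1875 to 2102. The log2 differences, 129 minus mixed, were -1.30 ± 0.06 (SE) for Olfr6 (limma, adjusted p = 1.59e-14), -1.21 ± 0.06 for Olfr711 (adjusted p = 5.51e-14) and -0.97 ± 0.04 for Olfr2 (adjusted p = 3.32e-14). Against the MK29 or the MK37 wild types alone these 3 values lay between -1.31 and -0.97.

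Olfr704 went the other way. Its median was 2778 scaled counts in wild-type 129 mice, from 2632 to 2928, above each mixed wild-type mouse, with a log2 difference of 0.95 ± 0.11 (SE; limma, adjusted p = 1.58e-07). Olfr705, its neighbour, was lower in 129 mice, with a median of 1893 scaled counts, from 1725 to 2028, all below the mixed wild-type mice, and a log2 difference of -0.66 ± 0.08 (SE; limma, adjusted p = 9.95e-08). Olfr710 differed by -0.38 ± 0.11 (SE; limma, adjusted p = 0.0044) and Olfr714 by -0.20 ± 0.07 (limma, adjusted p = 0.019), but against the MK37 wild types alone neither passed, with adjusted p = 0.091 and 0.10. Without replicate 5 of the 129 wild types, Olfr714 had adjusted p = 0.076. Olfr706 differed by 0.10 with a 95% interval from -0.02 to 0.22 (limma, adjusted p = 0.12). It passed as higher with trimmed-mean scaling over the OR genes (0.12, limma, adjusted p = 0.030), with median-of-ratios scaling (0.13, adjusted p = 0.011) and against the MK29 wild types alone (0.16, adjusted p = 0.028).

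In this comparison 7 of the 8 members passed, 1 higher and 6 lower, and 70.7% of the 549 OR genes tested did so too, so the count of members is not set apart from the panel. The groups did not overlap for 5 of 8 members and for 38.3% of the 549 genes. The median absolute log2 difference was 0.81 for the members and 0.32 for all genes, and 2 members, Olfr6 and Olfr711, were among 54 genes that differed 2-fold or more. Of the 13 other P cluster genes tested, 1 was higher and 6 were lower, with Olfr713 at -0.78 ± 0.08 (SE; limma, adjusted p = 7.93e-09). Background strain, colony and cartridge cannot be told apart here, since all 129 mice ran on MK38 and no mixed mice did. The 12 mixed wild-type mice are also the controls of the contrast that chose the 8 genes, so both comparisons share those mice. That choice leans toward genes with high values in those mice, and so toward lower values in the 129 mice. How far it moved the differences and p-values of the members was not tested.

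**Figure D4:**
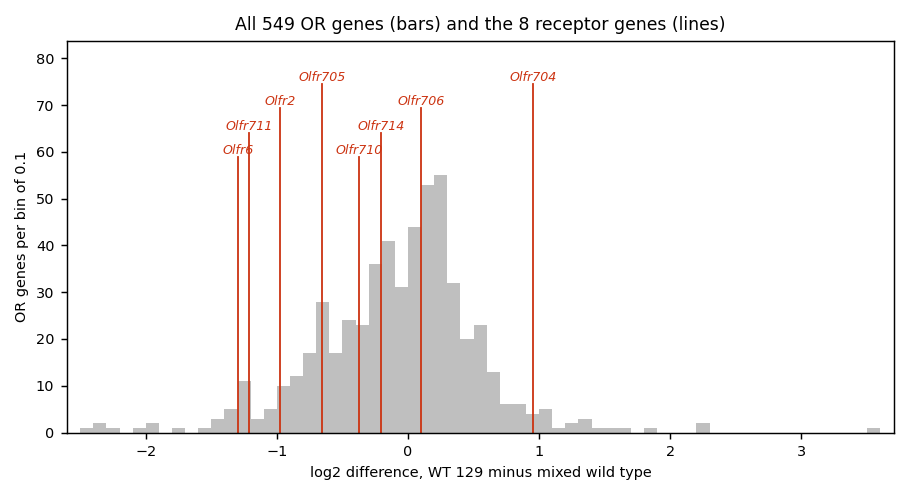
Distribution of the log2 difference between wild-type 129 (n = 6) and mixed wild-type mice (n = 12) over 549 OR genes in bins of 0.1 (bars), with the 8 genes as red lines. Olfr6, Olfr711 and Olfr2 lie between -1.30 and -0.97 and Olfr704 lies at 0.95, while Olfr706 and Olfr714 lie in the body of the distribution.

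Set beside the 129 wild types, the ΔHxΔP levels read differently for some members. The ΔHxΔP mean of Olfr705 was 46.4% of the mixed wild-type mean and 73.5% of the 129 mean, and that of Olfr710 was 44.0% and 57.9%. For Olfr706 the shares were 49.7% and 46.4%. Olfr704 had 19.4% and 10.2%. Olfr2, Olfr711 and Olfr6 stayed far below both, at 2.53%, 5.94% and 8.58% of the 129 means, as did Olfr714 at 14.7%. Among the neighbours outside the 8, Olfr695 was at 65.3% of the mixed and 91.6% of the 129 mean, Olfr701 at 67.0% and 107%, Olfr708 at 61.8% and 86.8%, while Olfr713 was at 17.2% and 29.7%. The share was lower against the 129 mean for Olfr693 (88.4% and 82.0%), Olfr699 (71.0% and 67.7%) and Olfr17 (82.6% and 71.1%). It rose by little for Olfr694, Olfr697, Olfr703 (66.1% and 70.1%) and Olfr716 (56.5% and 61.5%). For Olfr698 it was 89.9% and 112%, and for Olfr715 131% and 164%. The 129 means come from another cartridge, and these shares were added after the values were seen.

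The ΔOlfr7Δ mice, which the choice of genes did not use, asked whether these receptors differ with a deletion on another chromosome. No member passed the test: 0 of 8, with 0 also at an unadjusted p under 0.05. In limma 35.5% of 552 OR genes passed, those of the deleted cluster included, and 245 had an unadjusted p under 0.05. The log2 differences from wild-type 129 mice on the same cartridge ran from -0.04 (Olfr704) to 0.15 (Olfr711), adjusted p from 0.16 to 0.82, and all 95% intervals lay between -0.20 and 0.32. For Olfr2 the median was 2014 scaled counts in ΔOlfr7Δ mice, from 1680 to 2436, a range that takes in all 6 wild-type 129 mice. Olfr6 had a median of 3139, from 2816 to 3354. Scaled by the positive controls alone, Olfr710, Olfr711 and Olfr714 passed as higher, by 0.30, 0.33 and 0.31 (log2). That scaling moved the median of all OR genes in this comparison from 0.06 to 0.24.

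Both mixed wild-type groups, which differ in companion strain and cartridge, showed how far a member moved with no deletion at all. Olfr704 was lower in the MK37 mice, with a median of 1195 scaled counts against 1700 in the MK29 mice, a log2 difference of -0.52 ± 0.07 (SE; limma, adjusted p = 3.45e-05). Olfr710 was lower too, with medians of 258 and 339 scaled counts and a difference of -0.43 ± 0.10 (SE; limma, adjusted p = 0.0018). Olfr705 was higher, with medians of 3237 and 2572 scaled counts and a difference of 0.30 ± 0.06 (SE; limma, adjusted p = 0.00054). The ranges of both groups did not overlap for these 3 genes, and 20.1% of the 557 genes tested were without overlap. The other 5 members differed by -0.11 to 0.11 (log2) and did not pass, adjusted p from 0.20 to 0.86.

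These 3 of 8 members compare with 40.0% of the 557 OR genes that passed between the same 2 wild-type groups. Scaled by the OR genes themselves, with trimmed means or with medians of ratios, Olfr711 and Olfr714 also passed as lower, at differences of -0.15 to -0.22, and 5 members passed. Scaled by the positive controls alone, Olfr706 passed as higher, by 0.20 (limma, adjusted p = 0.047), beside the same 3 genes. Colony and cartridge cannot be told apart. None of these comparisons took the colony or the cartridge as the unit, and each of these was run once. For MK37 against MK29 and for ΔOlfr7Δ mice, p-values measure the spread between mice within a group. Comparisons with all mixed wild types pooled both groups without a term for colony or cartridge, and counted their mice as independent. Their spread thus also holds the difference between MK37 and MK29. For Olfr704 the SD (log2) was 0.297 over the pooled mice, 0.106 within MK29 and 0.137 within MK37.

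**Figure D5:**
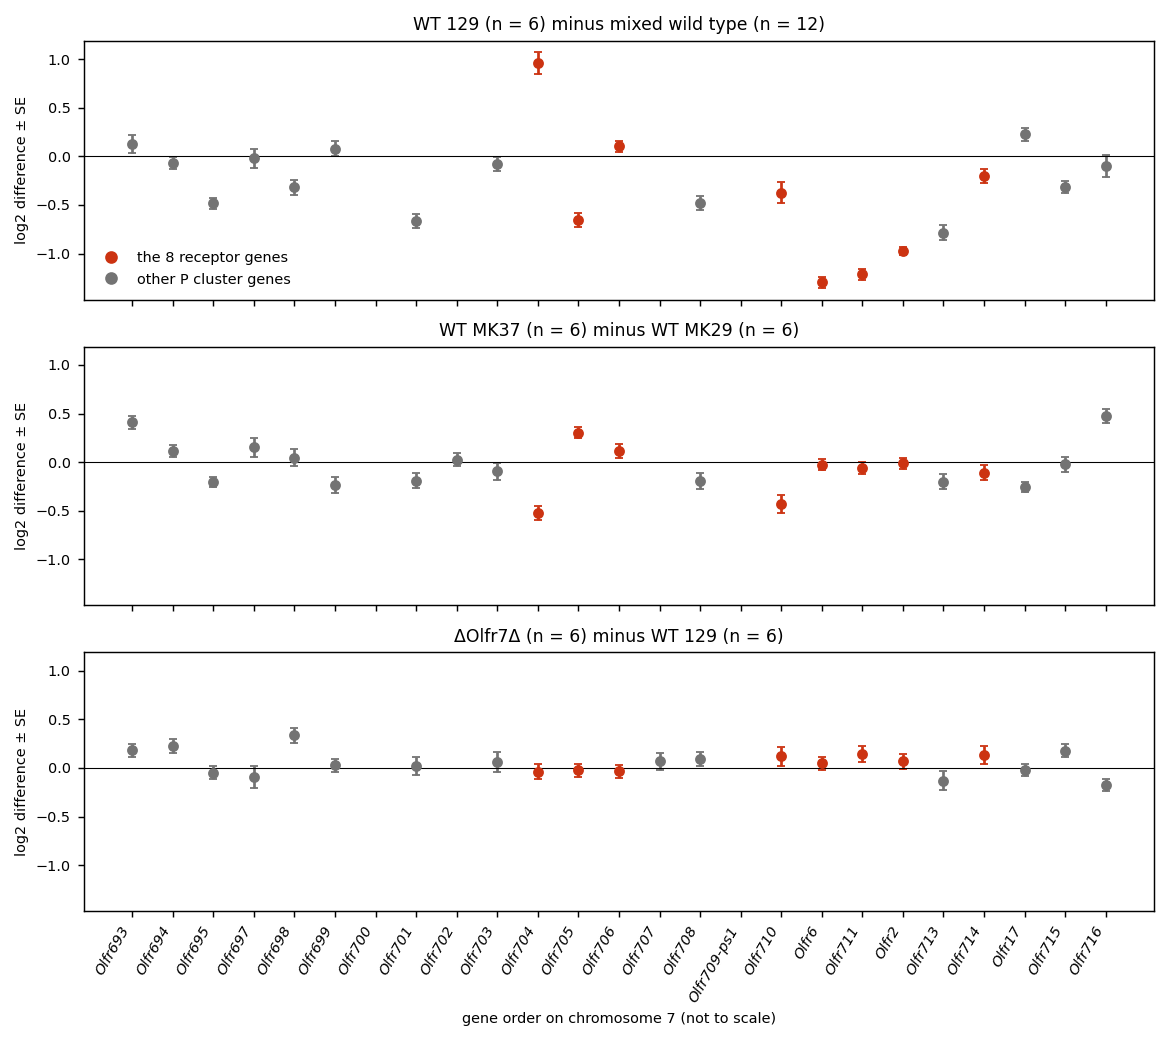
Log2 difference ± SE of P cluster genes in gene order, not to scale, on a shared axis, for wild-type 129 against mixed wild type, for wild type MK37 against MK29, and for ΔOlfr7Δ against wild-type 129; the 8 genes are in red. The run of low values at Olfr6, Olfr711 and Olfr2 is in the top panel, the low values of Olfr704 and Olfr710 are in the middle panel, and in the bottom panel the 8 genes lie between -0.04 and 0.15.

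Sex was compared because 5 of the 6 ΔHxΔP mice were male. Among 18 wild-type mice, with group in the model, 0 of 8 members and 0.0% of 549 OR genes passed in limma, with 1 member and 61 genes at an unadjusted p under 0.05. The member was Olfr710, at -0.15 ± 0.07 (SE) in females against males (adjusted p = 0.43). The 95% intervals of all 8 members lay between -0.29 and 0.14. With sex in the model, the median log2 change of the members in ΔHxΔP mice was -2.71, against -2.65 without it.

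The order of the 5 groups differed between members. ΔHxΔP mice came last for all 8. Against the mixed wild types this follows from the choice of genes, which did not use the mice on MK38. For Olfr6, Olfr711 and Olfr2 the MK29 and MK37 wild types came first with overlapping ranges, and the ΔOlfr7Δ and wild-type 129 mice followed, also overlapping, with a gap between the pairs. For Olfr704 the 129 and ΔOlfr7Δ mice came first, overlapping each other, then MK29 and then MK37, each apart from the next. For Olfr705 the order was MK37, MK29, then the overlapping 129 and ΔOlfr7Δ mice. For Olfr710 the MK29 wild types stood apart above the MK37, ΔOlfr7Δ and 129 mice, which overlapped from one to the next. For Olfr706 and Olfr714 the ranges of the 4 groups without the P deletion overlapped from each to the next.

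Within groups the correlations between members were low for most pairs. Over the 24 mice without the P deletion, the correlations of deviations from the group means had a median of 0.10 over 28 pairs of members and of 0.14 over all pairs of 549 OR genes. The highest pair of members was Olfr6 and Olfr711, at 0.69, and Olfr711 with Olfr2 was at 0.57. By the same measure the OR gene most like each member was Olfr803 for Olfr704 (0.70), Olfr1247 for Olfr705 (0.67), Olfr360 for Olfr706 (0.67), Olfr1018 for Olfr710 (0.65), Olfr711 for Olfr6 (0.69), Olfr1509 for Olfr711 (0.82), Olfr1212 for Olfr2 (0.83) and Olfr1189 for Olfr714 (0.72). Each is the highest of 548 values from mice that share lanes' scaling factors. Over all 30 mice, the 5 genes outside the 8 most like the mean of the members were Olfr1509, Olfr730, Olfr1507, Olfr1508 and Olfr1511, with correlations from 0.97 to 0.99 that rest on the low values of the 6 ΔHxΔP mice.

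Sequence near the annotated gene starts was searched for motifs of the kind known from OR promoters. RefSeq (GRCm38.p6) windows of 300 bases, 250 before the start and 50 after it, were held for 7 of the 8 members. In 5 of the 7 the annotated start is the start codon, so these windows need not hold the promoter. On either strand, TAATGA, a homeodomain-like site, was in the windows of Olfr704 and Olfr705 and in 9.78% of all 32851 windows, and it was in 134 of the 478 windows of panel OR genes, or 28.0%. TAATTA was in 0 of the 7 windows, in 5.29% of all and in 17.8% of those of panel OR genes. The full palindrome of the O/E-like motif was in 0 of the 7 windows, in 0.904% of all and in 0.418% of those of panel OR genes. A shorter form of it was in the window of Olfr710 alone, in 22.6% of all windows and in 10.3% of those of panel OR genes.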

How the data were processed

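RNA of the olfactory mucosa of 30 mice, 1 per lane, was counted on 3 NanoString cartridges. The deposited table holds the raw count of each gene in each lane, which the authors had not normalized, and a gene without values on a cartridge has empty cells there. Each count was multiplied by a factor from the geometric mean of 6 positive controls and then by one from 5 reference genes, over all 30 lanes, following the methods of the study. Scaled counts were tested as log2(scaled count + 1) with limma 3.58.1 in R 4.3.3 (lmFit, eBayes with trend), with Benjamini-Hochberg adjustment over all OR genes whose wild-type median was at least 100 after subtraction of the lane background (mean plus 2 SD of 8 negative controls), at 0.05. Summaries used Python 3.11.15, numpy 2.4.6 and pandas 2.3.3. The fit was tested on simulated data.

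The 8 members were present and tested in all 5 comparisons. The members and lists were chosen with earlier results of these data known. Named genes were the 8 members, the other P cluster genes, the 3 just outside a 2-fold fall, the reference genes and the most correlated OR genes; Olfr713 was singled out after its values were seen. P cluster membership and order come from the study's OR table, and 24 of its 25 symbols were matched in RefSeq. No 2 lanes held identical counts. Raw OR totals of 618163 to 1013430 per lane set the precision, and lane background limits low values. The numbers in the sample names run from 1 to 6 in each wild-type group: over 18 same-numbered pairs of wild-type mice, correlations of deviations ran from -0.299 to 0.155, 6 of them over 0.1, so they were not taken to pair the mice. Alternatives changed the scaling, background, pseudocount, filter, variance trend, covariates, controls and mice. Nothing was aligned to a genome, and protein sequences were not used here.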

Additional observations from a re-analysis of the deposited data

Results flagged for a closer look

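Among 40 sets of 6 values (8 members in 5 groups), 2 held a mouse far from the others, and chance alone gives such a mouse in about 1 of 20 sets. Olfr704 in replicate 4 of the ΔOlfr7Δ mice was low, at 2009 scaled counts, and its gap to the next mouse was 0.646 of the group's range on the log2 scale. Olfr2 in replicate 5 of the MK37 wild types was low, at 3491 scaled counts, with a gap of 0.712 of the range. Leaving out either mouse changed no call of a member.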

How the results depend on the processing

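Negative binomial models of the raw counts were not run. The median log2 change of the 8 members in ΔHxΔP mice was -2.65 and kept its direction in all alternatives run. The members were chosen for a fall in this contrast, so the kept direction restates that choice and is no support for it. The median was -3.60 with the background subtracted. With the 129 wild types as controls, an alternative chosen after seeing the data, it was -3.02. It ran from -2.68 to -2.60 when any 1 mouse was left out. In ΔOlfr7Δ mice 0 members passed, except with scaling by the positive controls alone, where 3 passed, and 0 passed whichever mouse was left out. Between the MK37 and MK29 wild types 3 members passed, but 5 did so with trimmed-mean scaling, 5 with median-of-ratios scaling and 4 with the positive controls alone; leaving out 1 mouse always left 3. The causes of these shifts were not tested. Between wild-type 129 and mixed wild-type mice 7 members passed, and 6 to 7 when 1 mouse was left out, the lower count without replicate 5 of the 129 mice. It was 8 with trimmed-mean scaling, with median-of-ratios scaling and against the MK29 wild types alone, and 5 against the MK37 wild types alone; by sex 0 passed in any setting. With the replicate number as a block, 3 members passed between MK37 and MK29 and 7 between 129 and mixed mice, so the block changed no count of members; the calls over all OR genes went from 223 to 208 and from 388 to 378. Scaling also moved the balance of calls over all OR genes. In ΔHxΔP mice 57 of 190 calls were higher, and 123 of 226 with median-of-ratios scaling. In ΔOlfr7Δ mice the share of calls that were higher was 65.8% and 51.4%, or 87.3% with the positive controls alone; between MK37 and MK29 it was 73.1% and 44.4%; and between 129 and mixed mice it was 47.2%, and 37.2% with the positive controls alone. Lane background limits Olfr2, Olfr711, Olfr714 and Olfr713 in ΔHxΔP mice, where the scaled counts lie near it.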
